A study of Mus musculus with 4 samples.

Results

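Spermatogonia that carried many Gfra1 transcripts, but in which no transcript of the T-box genes Eomes or T was counted, made up 154 of the 897 Plzf +/+ cells and were drawn from a series of 1249 cells. Such a Gfra1-high cell held at least 3 Gfra1 molecules, counted as unique molecular identifiers (UMIs), and 0 UMIs of Eomes and of T. By this definition 17.2% of the Plzf +/+ cells were Gfra1-high cells (exact Clopper-Pearson 95% interval 14.8 to 19.8%, which covers counting error only). The main comparison cells were Plzf +/+ cells with 0 Gfra1 UMIs, paired with them on total UMIs within the same library. The levels of Gfra1, Eomes and T chose the cells and are described without a test. Only the share of cells that they define was compared between genotypes.

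All cells came from testes of 4 wk old B6N.Cg mice with the Eomes<tm1.1(icre/ERT2)Reb> allele, in which an inducible Cre and tdTomato are inserted at the Eomes locus. Every mouse of both genotypes carried this knock-in allele, and the genotypes were Plzf +/+ and Plzf lu/lu, the latter homozygous for the luxoid mutation of Plzf (listed in the files as Zbtb16). Dissociated cells were sorted by tdTOMATO fluorescence, with a gate set on littermates without the allele and dead cells removed by DAPI, into 384-well plates, and transcripts were read from their 3′ ends. Plzf +/+ cells filled plates 1 and 2 and shared plate 4 with Plzf lu/lu cells, which also filled plate 3, so there were 3 Plzf +/+ and 2 Plzf lu/lu libraries. The label calls plate 4 a mixed sample that was not demultiplexed, and each of its cells took the genotype it was deposited under. On plate 4, 5 cells lay outside the wells of their genotype, and 0 of these were Gfra1-high Plzf +/+ cells. The labels name plates and no animals, so no p-value below is known to cover the spread between animals. Gene tests with the library as a block compared classes within plates. Their p-values measure how that difference varied between plates, which may be technical. The p-values for shares of cells measure the spread between libraries.

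Gfra1 encodes the GPI-anchored co-receptor for GDNF, a factor that Sertoli and peritubular cells secrete. GDNF bound to GFRA1 activates the receptor tyrosine kinase RET, which signals through Src-family kinases, AKT and ERK to transcription factors such as ETV5, EGR2, BCL6B and LHX1. In the testis this route maintains spermatogonial stem cells, and GFRA1 falls as undifferentiated spermatogonia become progenitors and respond to retinoic acid.

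The libraries of plates 1, 2 and 4 contributed 57, 46 and 51 Gfra1-high cells, which held 420651, 497431 and 429270 UMIs. Depth per Gfra1-high cell ranged from 2176 to 90744 UMIs with a median of 7135, against a median of 5908 over all Plzf +/+ cells, and 3 of them were deeper than 4 times that median. The plates reuse 1 set of 384 well barcodes, so 328 barcodes occur in more than 1 Plzf +/+ library, and 23 of them marked Gfra1-high cells in more than 1. Dazl, an RNA-binding protein of germ cells, was counted in 152 of the 154 cells, and the labels call the sorted cells germ cells. Ret was counted in 91 of them (59.1%) and Lhx1 in 67 (43.5%).

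The Gfra1-high cells held 649 of the 1471 Gfra1 UMIs of the genotype (44.1%), with a median of 4 and a maximum of 9 per cell. Cells with 3, 4 and 5 Gfra1 UMIs numbered 55, 52 and 21, and 26 cells had 6 or more. Relative to depth the Gfra1 level was uneven, from 33.1 to 1734 CPM (UMIs of a gene per 1000000 UMIs counted) with a median of 590. The absence of Eomes and T UMIs depends on depth as well as expression. The Gfra1-high cells that did hold them had Eomes at 62.5 ± 17.1 and T at 140 ± 44.1 CPM (SD, n = 3 libraries), levels raised by choosing cells with a UMI.

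The 90 cells with 2 Gfra1 UMIs, just outside, had Ret at 100 ± 37.2, Id4 at 83.9 ± 10.3 and Egr2 at 218 ± 15.5 CPM (SD, n = 3 libraries). The 55 cells with 3 Gfra1 UMIs, just inside, had Ret at 88.6 ± 44.9, Id4 at 95.4 ± 2.91 and Egr2 at 220 ± 58.0. Lhx1 was at 61.8 ± 21.3 outside and 106 ± 76.8 inside.

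Promoters are shown for Gfra1, whose transcripts define the cells, for Lhx1 and Egr2, which were higher in them, and for Sohlh1, which was lower. Each runs from 250 bases before to 50 bases after an annotated transcript start (RefSeq, GRCm38.p6), and capitals mark the ETS-family core CCGGAA on either strand, since ETV5 is an ETS factor. The windows are chr19:58455349-58455648 (minus strand) for Gfra1, chr11:84525485-84525784 (minus strand) for Lhx1, chr10:67537316-67537615 (plus strand) for Egr2 and chr2:25847199-25847498 (minus strand) for Sohlh1.
Gfra1: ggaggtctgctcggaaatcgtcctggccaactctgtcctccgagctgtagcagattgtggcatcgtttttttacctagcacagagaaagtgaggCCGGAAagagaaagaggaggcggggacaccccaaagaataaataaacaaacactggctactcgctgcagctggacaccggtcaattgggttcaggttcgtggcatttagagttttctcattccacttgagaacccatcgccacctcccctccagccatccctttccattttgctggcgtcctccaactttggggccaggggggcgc
Lhx1: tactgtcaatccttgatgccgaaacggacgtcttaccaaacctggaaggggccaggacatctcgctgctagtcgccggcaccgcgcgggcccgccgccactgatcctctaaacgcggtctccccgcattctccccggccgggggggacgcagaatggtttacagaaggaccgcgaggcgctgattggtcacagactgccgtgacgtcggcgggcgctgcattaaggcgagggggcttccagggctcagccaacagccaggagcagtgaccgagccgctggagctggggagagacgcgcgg
Egr2: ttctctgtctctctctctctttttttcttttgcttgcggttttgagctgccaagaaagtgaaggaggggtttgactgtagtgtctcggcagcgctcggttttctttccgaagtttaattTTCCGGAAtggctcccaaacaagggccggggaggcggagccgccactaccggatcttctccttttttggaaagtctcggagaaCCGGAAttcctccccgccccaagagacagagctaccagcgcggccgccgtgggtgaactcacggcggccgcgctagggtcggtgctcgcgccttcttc
Sohlh1: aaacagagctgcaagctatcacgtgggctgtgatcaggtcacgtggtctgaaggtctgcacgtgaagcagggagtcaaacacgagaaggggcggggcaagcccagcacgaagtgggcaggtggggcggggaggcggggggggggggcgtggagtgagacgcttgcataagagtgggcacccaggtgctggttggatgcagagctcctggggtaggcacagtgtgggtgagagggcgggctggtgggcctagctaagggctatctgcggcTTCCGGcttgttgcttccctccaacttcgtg
This Egr2 window held 3 matches, the Gfra1 and Sohlh1 windows 1 each and the Lhx1 window none. It was shown because it holds matches, and the other 4 annotated Egr2 windows, 2 Etv5 windows and the Id4 and Dusp6 windows held none. Among all 32851 promoter windows, 14.9% held the core, and over windows of the genes tested below 32.4% did. Of the windows of genes called higher in Gfra1-high cells 25.5% held it (36 of 141 windows, 100 of 146 genes matched), and of those called lower 13.1% (24 of 183 windows, 137 of 191 genes matched). No promoter of Ret is shown.

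To ask which genes go with Gfra1, 152 Gfra1-high cells (57, 44 and 51 from plates 1, 2 and 4) were compared with 152 Gfra1-negative cells of the same plates. UMIs were summed per library and class (1194957 against 1181468 UMIs in all) and tested with edgeR's quasi-likelihood test with the library as a block. The 2 deepest Gfra1-high cells, of 90744 and 61651 UMIs, had no partner. Of 7391 genes tested, 146 were called higher (1.98%) and 191 lower (2.58%) at an adjusted p under 0.05, and 63 and 83 of them differed over 2-fold. All 146 and 178 of the 191 differed in the same direction on each of the 3 plates. Without the library block, edgeR called 87 higher and 62 lower, and DESeq2 called 10 and 7 of the 3092 genes it gave an adjusted p. Values below are CPM after TMM scaling (edgeR's normalization of library sums), in the order of plates 1, 2 and 4, unless stated otherwise.

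Of the GDNF and FGF receptor complex, 6 of 19 genes had enough UMIs to test, and Ret and Fyn were higher, against the 1.98% called higher of all genes. The median log2 difference of the 6 genes was 0.50, beside -0.00 over all genes tested. Ret, the signalling receptor for GDNF, was at 139, 168 and 144 in Gfra1-high cells and 55.8, 66.2 and 88.3 in Gfra1-negative cells. The lowest Gfra1-high value lay above the highest Gfra1-negative value, and the log2 difference was 1.09 (SE 0.22, edgeR adjusted p = 0.0012). Fyn, a Src-family kinase, was at 260, 180 and 187 against 85.0, 104 and 126 (log2 difference 0.99, SE 0.20, edgeR adjusted p = 0.00114). Its call rested on plate 1, without which the log2 difference was 0.68 (edgeR adjusted p = 0.0883). The adaptors Grb2 (0.53) and Shc1 (-0.02), the kinase Yes1 (-0.35) and the phospholipase Plcg1 (0.47) did not pass the test. Sdc3 and Dok5, a GDNF-binding syndecan and a RET docking protein, had no UMI in any Gfra1-high cell.

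Of 16 tested genes of 21 that respond to GDNF or ERK, 6 were higher (Lhx1, Etv5, Egr2, Bcl6b, Dusp6 and Ccnd2) and 1 was lower (Mycn), beside 1.98% and 2.58% of all genes. The median log2 difference of the 16 genes was 0.82, and the summed level of the list was 1714, 1866 and 1726 CPM (without TMM scaling) against 780, 892 and 981.

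Lhx1, a LIM homeobox factor that GDNF induces in germline stem cells, was at 124, 171 and 141 in Gfra1-high cells and at 34.5, 9.46 and 37.5 in Gfra1-negative cells. The 2 ranges were far apart, and the log2 difference of Lhx1 was 2.35 (SE 0.29, edgeR adjusted p = 1.54e-06). It was the largest among genes called higher with at least 30 UMIs, Gm and Rik symbols left out. Egr2, an immediate-early zinc-finger factor, was at 327, 315 and 323 against 85.0, 75.7 and 85.6. Its libraries agreed closely within each class, and the log2 difference was 1.96 (SE 0.17, edgeR adjusted p = 6.7e-11).

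Etv5, an ETS factor needed for stem cell self-renewal, was at 129, 174 and 159 against 47.8, 59.9 and 66.9 (log2 difference 1.39, SE 0.22, edgeR adjusted p = 5.16e-05). Dusp6, a phosphatase that ERK signalling induces and that acts on ERK, was at 170, 144 and 134 against 50.5, 50.4 and 99.0 (1.16, SE 0.23, edgeR adjusted p = 0.00173). Bcl6b, a transcriptional repressor, was at 38.6, 105 and 45.4 against 21.2, 22.1 and 8.03, high on plate 2 in particular. Its log2 difference of 1.82 (SE 0.38, edgeR adjusted p = 0.00214) was 1.50 without plate 2, and the call was then lost (edgeR adjusted p = 0.0847). Ccnd2, a D-type cyclin, was at 371, 312 and 371 against 175, 214 and 225 (0.79, SE 0.14, edgeR adjusted p = 0.000268).

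Mycn, which encodes a MYC-family factor, went the other way. It was at 12.9, 18.0 and 5.04 in Gfra1-high cells and 50.5, 50.4 and 45.5 in Gfra1-negative cells, with 13 against 52 UMIs in all (log2 difference -2.04, SE 0.44, edgeR adjusted p = 0.00299). The ERK inhibitor Spry4 (1.54, edgeR adjusted p = 0.0715), the ETS factor Etv4 (0.85), the immediate-early factors Egr1 (0.56, edgeR adjusted p = 0.0904) and Fos (0.91) and the inhibitors Spred1 (0.46) and Spred2 (0.47) did not pass. Neither did the POU factor Pou3f1 (0.34), the tetraspanin Tspan8 (0.34) and the cyclin Ccnd1 (0.20). Without plate 1 Spry4 was called higher (2.17, edgeR adjusted p = 0.0234). Egr1 was called higher (0.67, edgeR adjusted p = 0.0498) among cells with Dazl, under 1% spermatid UMIs and at most 2 Sertoli genes. Egr3 had no UMI in any Gfra1-high cell.

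**Figure D1:**
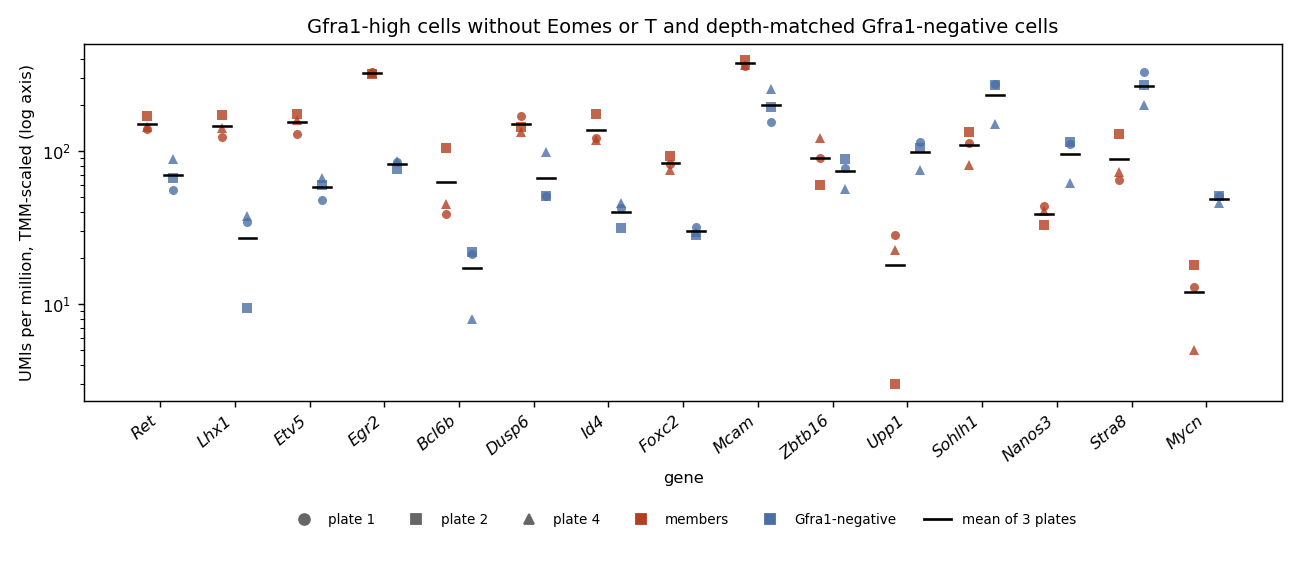
Levels of 15 genes in CPM after TMM scaling (log axis), with 1 point per plate (n = 3) for Gfra1-high cells without Eomes or T (members, red) and depth-matched Gfra1-negative cells (blue), and bars at the means. Egr2 sat between 315 and 327 in the Gfra1-high cells and between 75.7 and 85.6 in the Gfra1-negative cells, whereas the ranges of Zbtb16 overlapped.

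Among genes described as marking the stem state, 4 of 8 tested genes (of 17 listed) were higher and none was lower, beside 1.98% and 2.58% of all genes. The median log2 difference of the 8 genes was 1.12. Id4, an inhibitor of DNA-binding bHLH factors, was at 121, 174 and 118 against 42.5, 31.5 and 45.5, with no overlap (log2 difference 1.74, SE 0.25, edgeR adjusted p = 1.05e-05). Foxc2, a forkhead factor, was at 82.3, 93.1 and 75.6 against 31.9, 28.4 and 29.4 (1.46, SE 0.30, edgeR adjusted p = 0.00192). For both genes the lowest Gfra1-high plate lay above the highest Gfra1-negative plate.

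The adhesion molecule Mcam was at 360, 391 and 365 against 154, 192 and 254 (log2 difference 0.90, SE 0.14, edgeR adjusted p = 5.14e-05). Plvap, an endothelial-type membrane protein that also marks some spermatogonia, averaged 52.7 ± 5.82 against 20.5 ± 2.93 (SD, n = 3; 1.34, SE 0.36, edgeR adjusted p = 0.0191). The Plvap call was lost when any 1 of the 3 plates was left out (1.38, 1.31 and 1.35 without plates 1, 2 and 4, edgeR adjusted p = 0.0674, 0.0837 and 0.0792). The ephrin receptor Epha2 (1.45), the integrins Itga6 (0.49) and Itgb1 (-0.24) and the Polycomb protein Bmi1 (0.05) did not pass.

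Some stem state genes were too sparse to test. Nanos2, an RNA-binding protein, was counted in 20 of the 152 matched Gfra1-high cells and 12 Gfra1-negative cells. Pdx1, a homeobox factor, was counted in 15 and 8 cells, and Pax7, a paired-box factor, in 3 and 1.

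Of 12 tested genes of 13 that undifferentiated spermatogonia in general express, none was higher and 3 were lower, beside 1.98% and 2.58% of all genes. The median log2 difference of the 12 genes was -0.03. Zbtb16, the Plzf gene itself, was at 90.1, 60.1 and 121 in Gfra1-high cells and 77.0, 88.3 and 56.2 in Gfra1-negative cells. These ranges overlapped (log2 difference 0.31, SE 0.26, edgeR adjusted p = 0.618), and without plate 4 the difference was -0.12. The zinc-finger factor Sall4 (0.42), the forkhead factor Foxo1 (-0.43), the let-7 regulator Lin28a (-0.59), Dazl (-0.05) and the RNA helicase Ddx4 (0.16) did not pass, nor did Lin28b (0.10), Tex14 (-0.01) and Dnd1 (-0.02). Without plate 1 the sign of Dazl turned (0.06) and Sall4 was called higher (0.82, edgeR adjusted p = 0.0107).

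The 3 genes of this group that were lower were Uchl1, Nanos3 and Ddit4. Uchl1, a ubiquitin hydrolase, was at 558, 562 and 678 against 993, 927 and 995 (log2 difference -0.70, SE 0.10, edgeR adjusted p = 2.67e-06). Nanos3, a translational repressor, was at 43.7, 33.0 and 40.3 against 112, 114 and 61.5 (-1.25, SE 0.28, edgeR adjusted p = 0.0046). The Nanos3 call was lost without plate 2 (-1.02, edgeR adjusted p = 0.0641). Ddit4, an inhibitor of mTORC1, averaged 18.5 ± 10.4 against 75.8 ± 19.7 (SD, n = 3; -1.99, SE 0.37, edgeR adjusted p = 0.000571).

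Of 5 tested progenitor genes of 8, 3 were lower, beside the 2.58% called lower of all genes, and none was higher. Their median log2 difference was -0.87, and the summed level was 573, 658 and 554 CPM (without TMM scaling) against 922, 998 and 780. Upp1, a uridine phosphorylase, was at 28.3, 3.00 and 22.7 in Gfra1-high cells and 114, 104 and 74.9 in Gfra1-negative cells (log2 difference -2.37, SE 0.36, edgeR adjusted p = 4.69e-05). Sohlh1, a bHLH factor of spermatogonial differentiation, was at 113, 132 and 80.7 against 274, 268 and 150, again without overlap (-1.08, SE 0.18, edgeR adjusted p = 0.000106). The sex-determination family factor Dmrt1 differed less (-0.43, SE 0.12, edgeR adjusted p = 0.0334), and its call was lost when any 1 plate was left out. The related bHLH factor Sohlh2 (-0.87, edgeR adjusted p = 0.148) and the TFIID subunit Taf4b (0.09) did not pass, although Sohlh2 was called lower without plate 1 (-1.29, edgeR adjusted p = 0.0443). Neurog3, a bHLH factor of early progenitors, was counted in 0 of the 154 Gfra1-high cells (exact Clopper-Pearson 95% upper limit 2.37%; 1.95% by a floor of 3 counts) and in 14 of 152 matched Gfra1-negative cells (9.21%). These limits are on cells with a UMI, not on cells expressing the gene.

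Of 5 tested genes of differentiating spermatogonia 2 were lower, beside 2.58% called lower of all genes, and none higher, with a median log2 difference of -0.69. Stra8, which retinoic acid induces before meiosis, was at 64.3, 129 and 73.1 against 327, 268 and 198 (log2 difference -1.59, SE 0.20, edgeR adjusted p = 1.54e-06). Within the Gfra1-high cells Stra8 was concentrated: 28 of 154 cells held its 106 UMIs, and 5 cells held 56.6% of them. Crabp1, a retinoic acid-binding protein, averaged 115 ± 16.9 against 185 ± 9.73 (SD, n = 3; -0.69, SE 0.19, edgeR adjusted p = 0.0201), a call lost without plate 1 or plate 4. None of the 3 tested retinoid receptor and enzyme genes of 11 passed the test.

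**Figure D2:**
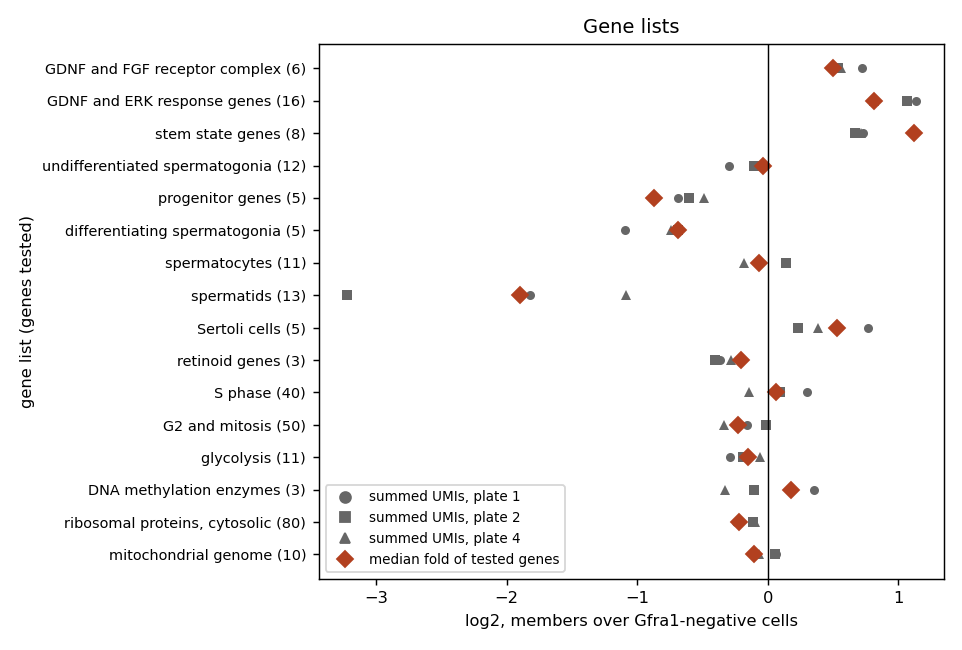
Log2 ratio of Gfra1-high cells without Eomes or T (members) over depth-matched Gfra1-negative cells for each gene list, with the number of tested genes in parentheses. Grey symbols are ratios of summed UMIs on each of 3 plates and red diamonds are medians over tested genes, for example 0.82 for GDNF and ERK response genes and -0.87 for progenitor genes.

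Calls outside the lists were ranked among genes with at least 30 UMIs and the same direction on 3 plates, Gm and Rik symbols left out. The largest higher ones were Hs3st3b1 (2.32), a heparan sulfate sulfotransferase, Mapk11 (2.07), a p38 kinase, and the pseudokinase Trib1 (2.06), all log2 differences. They were followed by Igsf21 (1.70), Dalrd3 (1.65), Pdzd2 (1.64), Ppfibp2 (1.64), Tox3 (1.63), Mical1 (1.57) and Ptpn13 (1.56), the last a protein tyrosine phosphatase. Ptpn13 averaged 232 ± 10.9 against 77.9 ± 13.2 (SD, n = 3). Among 129 pairs of cells low in spermatid and Sertoli transcripts (with Dazl, under 1% spermatid UMIs and at most 2 Sertoli genes) Trib1 lost its call (1.82, edgeR adjusted p = 0.0534), and Hs3st3b1 and Mapk11 could not be fitted. The calls of Mapk11, Trib1, Dalrd3, Tox3 and Mical1 were each lost without at least 1 plate. Chd4, an ATPase of the NuRD complex, and Tcl1, an AKT co-activator, were chosen after their values were seen, being called by DESeq2 as well: Chd4 averaged 858 ± 135 against 406 ± 81.1 and Tcl1 212 ± 24.2 against 73.3 ± 11.6 (SD, n = 3).

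The largest lower calls outside the lists, ranked in the same way, were Adc (-2.84), Igfbp6 (-2.45), an IGF-binding protein, BB014433 (-2.38), Wbscr25 (-2.36), Tppp2 (-2.19) and Lelp1 (-2.15), again as log2 differences. Spata18 (-1.93), Lonrf3 (-1.84), Kif26a (-1.84), a kinesin, St6galnac2 (-1.78), a sialyltransferase, and the zinc-finger gene Zfp516 (-1.78) followed. Most were sparse, Adc with 6 against 43 UMIs and Igfbp6 with 10 against 54. The calls of Wbscr25, Lelp1 and Zfp516 were each lost without 1 plate. Among cells low in spermatid and Sertoli transcripts (under 1% of UMIs and at most 2 genes) Adc, BB014433, Wbscr25, Tppp2, Lelp1, Spata18 and St6galnac2 could not be fitted, whereas Igfbp6 (-2.79), Lonrf3 (-1.66), Kif26a (-1.77) and Zfp516 (-1.86) were called lower. Of all 191 lower genes 147 could be fitted there, and 73 were called lower again.

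**Figure D3:**
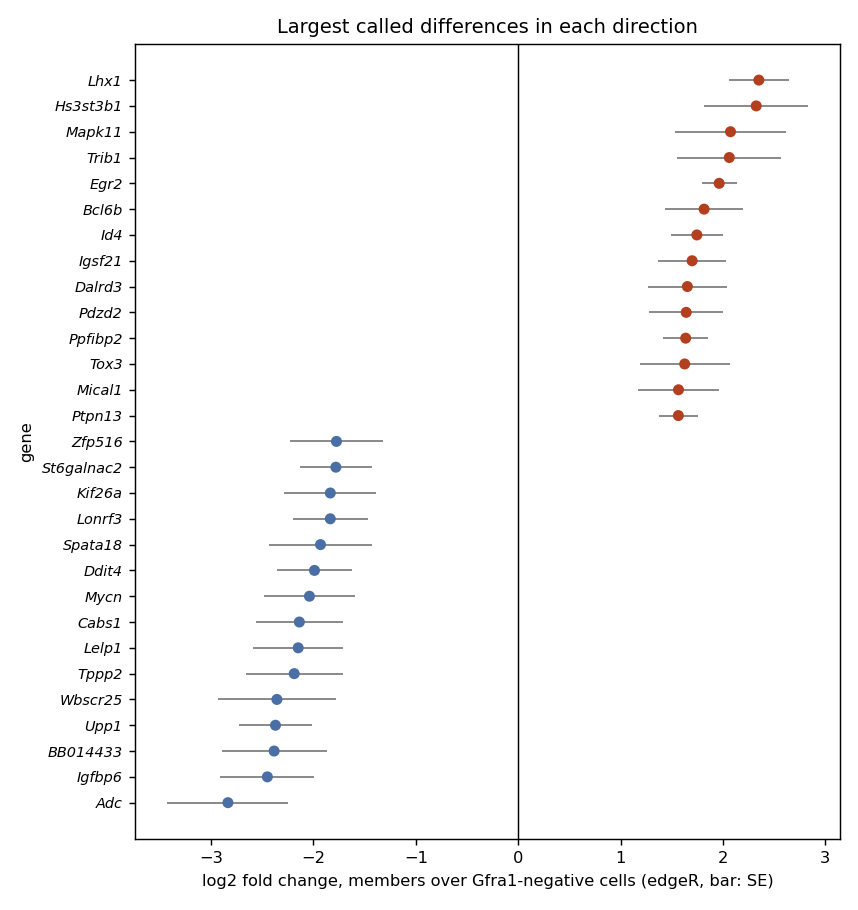
Log2 difference between Gfra1-high cells without Eomes or T (members) and depth-matched Gfra1-negative cells for 14 of the 15 largest higher (red) and the 15 largest lower (blue) called genes with at least 30 UMIs and the same direction on 3 plates, with bars of 1 SE from edgeR. Values run from 2.35 for Lhx1 to -2.84 for Adc.

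Genes called higher spanned more of the genome than genes called lower. The median gene span was 49.1 kb for the 146 higher genes and 8.17 kb for the 189 lower genes with a RefSeq entry, beside 22.7 kb for all genes tested (7312 of 7391 matched). Malat1, a nuclear noncoding RNA chosen after its values were seen, was higher, at 3224, 2049 and 2904 against 2313, 1453 and 1857 (log2 difference 0.54, SE 0.07, edgeR adjusted p = 2.64e-06). The part of nuclear RNA content in the calls was not tested.

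None of 40 tested S phase genes was called, beside 1.98% called higher and 2.58% called lower of all genes, and of 50 G2 and mitosis genes 4 were lower: Ccnb1 (-0.85), the cyclin of mitotic entry, Cenpf (-0.41), a kinetochore protein, Hmgb2 (-0.52) and Tubb4b (-0.40). Of these, Cenpf, Hmgb2 and Tubb4b lost their calls without at least 1 plate. Of 11 tested glycolysis genes 2 were lower, Eno1 (-0.97) and Hk1 (-1.32). Hk1 lost its call among cells low in spermatid and Sertoli transcripts (under 1% of UMIs and at most 2 genes; -0.58, edgeR adjusted p = 0.537). The Hk1 call was also lost among cells with a UMI of an undifferentiated gene (Zbtb16, Sall4, Id4, Lin28a, Foxo1 or Utf1; -0.60, edgeR adjusted p = 0.323). Of 80 tested cytosolic ribosomal protein genes 15 were lower and none higher, with a median log2 difference of -0.22. The median share of ribosomal protein UMIs per cell was 7.68% against 8.53%, and that of mitochondrial UMIs was 5.02% against 5.13%. None of 3 tested DNA methylation enzymes and none of 10 tested mitochondrial genes was called.

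Transcripts of other cell types moved with the comparison. Of 13 tested spermatid genes 4 were lower, beside 2.58% called lower of all genes, with a median log2 difference of -1.90. The summed level of the list was 637, 1139 and 3201 CPM (without TMM scaling) against 2254, 10624 and 6798. The lower genes were Odf1 (-1.68) and Akap4 (-1.83), both of the sperm tail, Fabp9 (-0.85), and Cabs1 (-2.14). Akap4 was not lower on plate 1 (15.4 against 13.3) and lost its call without plate 2 (-1.31, edgeR adjusted p = 0.0616). Fabp9 lost its call without cells over 4 times the median depth (-1.12, edgeR adjusted p = 0.224), and Odf1 was at -0.18 among cells with a UMI of an undifferentiated gene (edgeR adjusted p = 0.863). At least 1% of UMIs came from spermatid genes in 4 of 152 Gfra1-high cells and 8 of 152 Gfra1-negative cells. Of 11 tested spermatocyte genes 1 was lower, the kinase Pgk2 (-1.17), beside the same 2.58% of all genes, and none was higher, with a median of -0.07. Among cells with a UMI of an undifferentiated gene the sign of Pgk2 turned (0.16).

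Of 5 tested Sertoli cell genes all 5 leaned higher in Gfra1-high cells, with a median log2 difference of 0.53. Of them 1 was called higher, beside 1.98% of all genes, the protease gene Ctsl (0.53, SE 0.11, edgeR adjusted p = 0.00308). The Sertoli list summed to 637, 641 and 599 CPM (without TMM scaling) against 373, 545 and 458. Only Inhbb, Gata4 and Fshr of its 16 genes had no UMI in the Gfra1-high cells. More than 2 Sertoli genes were counted in 21 Gfra1-high and 11 Gfra1-negative cells. Genes of Leydig cells, myoid cells, macrophages, endothelium, T and NK cells and erythroid cells were too low to test. Each list summed to at most 37.7 CPM (without TMM scaling) in any Gfra1-high library. Of the genes present in the data, those with no UMI in Gfra1-high cells were 2 of 4 for Leydig cells, 2 of 6 for myoid cells and 3 of 7 for macrophages. They were 1 of 8 for endothelium, 8 of 11 for T and NK cells and 5 of 6 for erythroid cells.

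Ret, Lhx1, Egr2 and Id4 were also called higher when cells rich in spermatid or Sertoli transcripts were set aside. Among 129 pairs of cells with Dazl, under 1% spermatid UMIs and at most 2 Sertoli genes, the log2 difference was 1.07 for Ret, 2.06 for Lhx1, 1.90 for Egr2 and 1.61 for Id4. Upp1 (-2.20), Sohlh1 (-1.01) and Stra8 (-1.65) also stayed lower there. Of 6599 genes tested, 102 were then higher and 95 lower, and the sign of Fabp9 turned (0.44). Under this restriction, and under one to cells with a UMI of an undifferentiated gene, Lhx1, Egr2, Etv5 and Ret were called higher. Id4 was called under both as well, but it is among the genes that chose the cells of the second restriction.

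Counted per cell, Ret was present in 59.9% of matched Gfra1-high cells and 31.6% of Gfra1-negative cells, and Lhx1 in 44.1% and 11.8%. With every cell thinned to 2000 UMIs the shares were 27.6% and 15.8% for Ret and 21.1% and 5.26% for Lhx1. As a background level, 26 cells with at least 5 Sertoli genes (median 3168 UMIs, against 7102 and 6994.5 in the 2 matched classes) included 0 with a Ret or Lhx1 UMI (exact Clopper-Pearson 95% upper limit 13.2%, or 11.5% by a floor of 3 counts). Egr2 was counted in 75.0% of Gfra1-high and 28.3% of Gfra1-negative cells and in 1 of these 26 cells (3.85%). This background differed by gene: in the 26 cells Ldhc was counted in 24, Prm2 in 16, Uchl1 in 12, Ddx4 in 8 and Dazl in 0.

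Of 154 Gfra1-high cells 44 (28.6%) held UMIs of both Ret and Lhx1 and 40 held neither. The 40 cells were shallower (median 6502.5 against 7558 UMIs) and had fewer Gfra1 UMIs (median 3 against 4) than the other 114. Over the 8 genes Ret, Lhx1, Id4, Etv5, Egr2, Bcl6b, Foxc2 and Dusp6, a matched Gfra1-high cell held a mean of 4.26 genes and a Gfra1-negative cell 1.76. These 8 genes were picked with their differences known, so their counts describe the spread among cells. At least 4 of the 8 were present in 101 Gfra1-high cells (66.4%) and 28 Gfra1-negative cells (18.4%). The means per plate were 3.82, 4.66 and 4.39 against 1.67, 1.61 and 1.98, and at 2000 UMIs per cell the overall means were 1.93 and 0.717. With Ret and Lhx1 set aside, at 2000 UMIs the 40 Gfra1-high cells with neither held a mean of 1 of the other panel genes. The other 114 held a mean of 1.57.

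**Figure D4:**
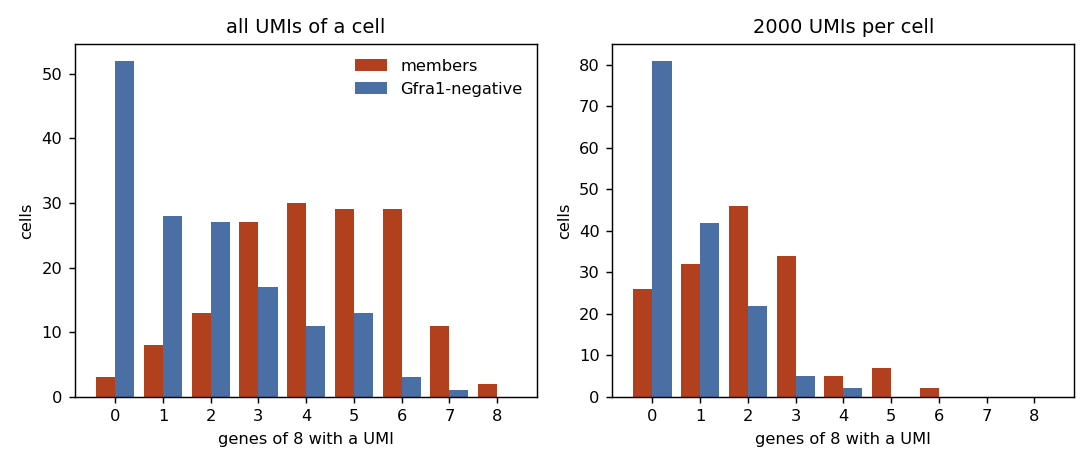
Number of cells (y axis) by how many of 8 genes had a UMI (x axis), for 152 Gfra1-high cells without Eomes or T (members, red) and 152 depth-matched Gfra1-negative cells (blue), at full depth (left) and at 2000 UMIs per cell (right). At full depth none of the 8 was present in 3 Gfra1-high and 52 Gfra1-negative cells.

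The genes most variable among the 154 cells at 2000 UMIs, by variance over mean, were Gm26924 (41.2), mt-Rnr2 (12.7), Ldhc (10.2), mmu-mir-6236 (10.1), Prm2 (8.43), Prm1 (7.92), mt-Rnr1 (7.88), Meig1 (5.41), Lars2 (5.33) and Gm23935 (5.13). Ldhc, a germ cell lactate dehydrogenase, was present in 32 thinned cells and the protamine gene Prm2 in 21. At full depth 5 cells held 79.6% of the Ldhc UMIs and 81.1% of the Prm2 UMIs of the Gfra1-high cells. Genes counted per cell at 2000 UMIs had a median of 1398 against 1374 in Gfra1-negative cells.

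Lhx1 and Ret were followed across the Gfra1 counts below and above the threshold, as a description with no test. The classes with any Gfra1 UMI held only cells without Eomes or T, whereas 24 of the 331 cells with 0 Gfra1 UMIs had a UMI of either. In cells with 0, 1 to 2, 3 to 4 and 5 or more Gfra1 UMIs, Lhx1 was at 27.7 ± 5.95, 64.1 ± 7.13, 104 ± 37.8 and 165 ± 66.6 CPM (without TMM scaling, SD, n = 3 libraries). Ret was at 60.7 ± 10.7, 80.3 ± 17.4, 108 ± 28.7 and 167 ± 41.8. Both means were higher at each step, but the plates of the middle classes overlapped for both genes and those of the upper classes overlapped for Lhx1. Upp1 was at 73.7 ± 13.6, 26.2 ± 10.7, 21.7 ± 7.98 and 12.2 ± 10.7, and most of its fall lay between 0 and 1 to 2 Gfra1 UMIs. Cells with more UMIs reach a higher Gfra1 count more easily, and these classes were not matched on depth.

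**Figure D5:**
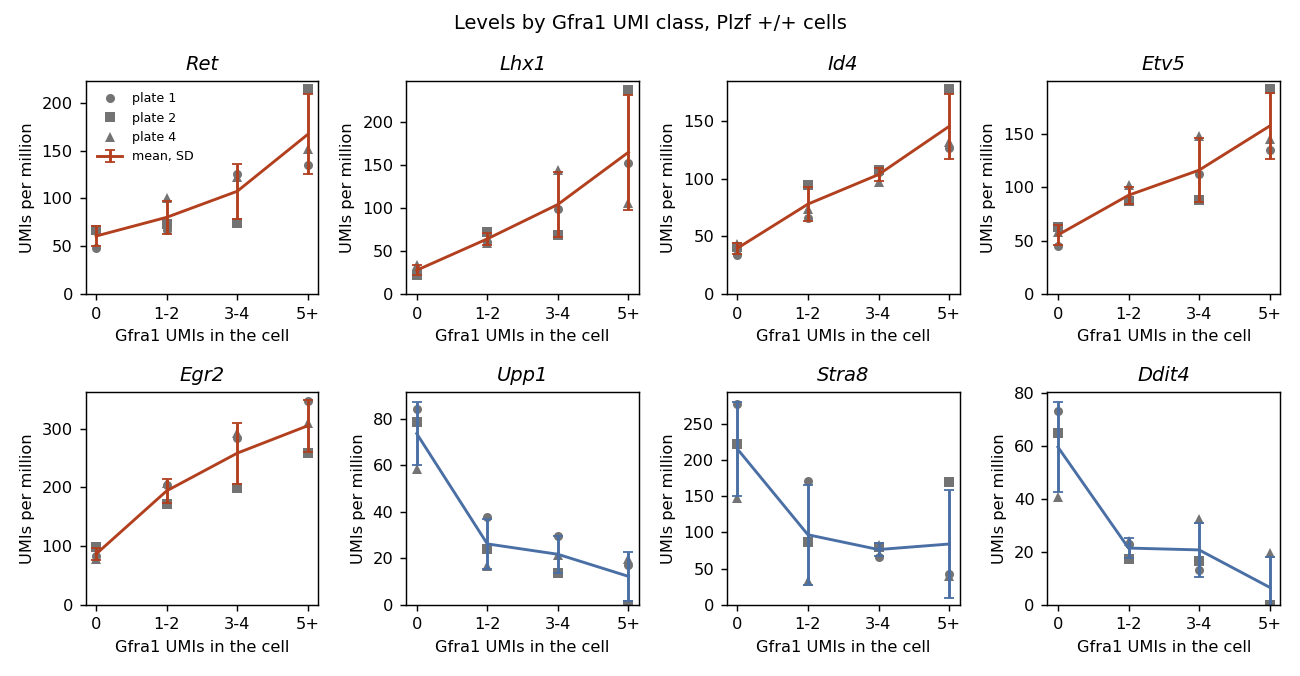
Level of 8 genes (CPM without TMM scaling) in Plzf +/+ cells grouped by Gfra1 UMIs (x axis), where classes above 0 hold only cells without Eomes or T and the 0 class includes 24 cells with them, with 1 symbol per plate and lines through the mean with SD (n = 3). Id4 went from 39.7 to 145 and Egr2 from 86.5 to 305 between cells with 0 and with 5 or more Gfra1 UMIs, while Stra8 went from 215 to 84.0.

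A further comparison used the 81 Gfra1-high Plzf +/+ cells that did hold Eomes or T UMIs. Of these 78 (29, 33 and 16 on plates 1, 2 and 4) were matched on depth with Gfra1-high cells lacking both. Of 5306 genes tested with edgeR, 34 were higher (0.641%) and 15 lower (0.283%) in the cells without Eomes or T, and without the library block 1 was higher and 1 lower. DESeq2 called none in either direction, with 45 genes at an unadjusted p under 0.05. On plate 2 a Gfra1-high cell of 61651 UMIs was paired with one of 53784. Without cells over 4 times the median depth the calls were 5 higher and 9 lower of 5306 genes. Without plate 2 they were 1 and 3 of 4457, and without plate 1 they were 41 and 26 of 5187.

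Ret did not separate these 2 kinds of Gfra1-high cell. It was at 133, 172 and 164 in cells without Eomes or T and at 141, 199 and 153 in cells with them (log2 difference -0.10, SE 0.25, edgeR adjusted p = 0.971). Id4 (-0.43), Egr2 (-0.39), Etv5 (-0.11) and Dusp6 (-0.54) did not pass either. Lhx1 was at 153, 169 and 25.9 without Eomes or T and 287, 179 and 269 with them. The low value of plate 4 came from 16 matched cells, and over all 51 Gfra1-high cells of that plate without Eomes or T Lhx1 was at 130 CPM without TMM scaling (56 UMIs). Its log2 difference of -0.87 (SE 0.24, edgeR adjusted p = 0.041) lost its call without plate 1 (-0.87, edgeR adjusted p = 0.292), without plate 4 (-0.49, edgeR adjusted p = 0.602) or without the deep pair (-0.79, edgeR adjusted p = 0.111).

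Stra8 showed the largest difference among the genes higher without Eomes or T with at least 30 UMIs, Gm and Rik symbols left out. It was at 81.7, 137 and 77.6 in those cells and 9.74, 4.07 and 26.9 in cells with Eomes or T, with 60 against 6 UMIs (log2 difference 3.18, SE 0.53, edgeR adjusted p = 8.86e-07). The ranges did not overlap, but the call was lost without plate 2 (2.26, edgeR adjusted p = 0.586). Of 4 tested genes of differentiating spermatogonia 2 were higher, Stra8 and Dmrtb1, beside 0.641% of all genes.

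Nid1, a basement membrane protein, was lower in cells without Eomes or T, at 91.9, 102 and 103 against 253, 305 and 216 (log2 difference -1.42, SE 0.25, edgeR adjusted p = 8.38e-06). Plvap was at 56.2, 50.9 and 34.5 against 82.8, 159 and 162 (-1.40, SE 0.35, edgeR adjusted p = 0.0092). Neither gene overlapped between the classes, and both calls were lost without plate 2 (edgeR adjusted p = 0.0923 and 0.672). The Plvap call was also lost without plate 4 (-1.20, edgeR adjusted p = 0.139). Against Gfra1-negative cells both genes were higher (Nid1 1.36 and Plvap 1.34). These 2 comparisons share Gfra1-high cells.

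The other large differences of this comparison were highest on plate 2 in both classes. Spink2 (1.84), Cetn1 (1.72), Pabpc2 (1.64) and AA467197 (1.58) were higher without Eomes or T, and the protamine gene Prm2 (-2.92), the sperm mitochondrial gene Smcp (-2.56) and Gsg1 (-2.24) were lower. Prm2 was at 643 against 6221 on plate 2. Cetn1, AA467197 and Smcp lost their calls without plate 2 and without cells over 4 times the median depth, and Pabpc2 lost its call without those cells. Smcp was then at -0.70 without plate 2 and -0.62 without the deep cells. Prm2 was called lower under both, at -2.01 and -1.28, and Spink2 and Gsg1 could be fitted under neither. Over the lists, 3 of 8 tested spermatocyte genes were higher, beside 0.641% of all genes, and 4 of 8 spermatid genes were lower, beside 0.283%. At a caliper of 0.1 no gene was called higher in this comparison and 2 were called lower by edgeR (of 4758 tested, with 286 genes at an unadjusted p under 0.05).

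By the same rule the Plzf lu/lu libraries held 46 such cells, 40 of 314 (12.7%) on plate 3 and 6 of 38 (15.8%) on plate 4, with median depths of 13330.5 and 12073 UMIs. The Plzf +/+ shares were 18.0, 15.2 and 18.4% on plates 1, 2 and 4, a difference of 2.93 percentage points between the means (17.2 and 14.3%; exact permutation test, two-sided, p = 0.3, where 0.1 is the smallest p that 3 against 2 libraries allow). It was 1.40 points without Plzf lu/lu plate 3 and 4.45 without Plzf lu/lu plate 4. Without the 5 plate 4 cells outside the wells of their genotype it was 3.04 points. It was 1.26 points for cells with at least 5 Gfra1 UMIs (exact permutation p = 0.5), and the means were 12.0 and 5.02% for cells with at least 2 Gfra1 UMIs and 500 CPM (exact permutation p = 0.1). Thinned to 2000 UMIs with at least 1 Gfra1 UMI, the means were 33.1 and 21.4% (exact permutation p = 0.1), a difference of 11.7 points. All these shares are set by the counts of Gfra1, Eomes and T that define the cells, and say nothing of other genes. In 40 depth-matched pairs of plate 3, Ret had 106 against 22 UMIs, Egr2 107 against 20, Lhx1 22 against 8 and Id4 62 against 50, with no test within this library.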

How the data were processed

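The measurement was 3′ RNA sequencing of single sorted cells in 384-well plates, with unique molecular identifiers (UMIs). The authors deposited 1 table of raw UMI counts per gene and cell for each genotype. The submitters' processing notes name bcl2fastq 2.18.0.12, Picard 2.9.3, STAR 2.5.4a and GRCm38. Cells were assigned to plates by the library part of their column names.

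The cells and gene lists were chosen with earlier results of these data known. Gfra1-high cells (at least 3 Gfra1 UMIs, 0 of Eomes and T) were paired 1 to 1 with comparison cells of the same library within 0.25 log2 units of total UMIs. UMIs were summed per library and class. Genes passing filterByExpr were tested with edgeR 4.0.16 (quasi-likelihood, TMM, library as a block because both classes came from the same plate), with Benjamini-Hochberg adjustment over all tested genes and Gfra1, Eomes and T left out. The fitting script was tested on simulated data. Means ± SD are over 3 libraries. Depth per library was 2005033 to 2372452 UMIs for Plzf +/+ plates, and intervals cover counting error only. Shares of cells were compared with an exact permutation test over libraries. Thinning to 2000 UMIs used seed 1.

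The genes named were the 15 largest called differences each way with the same direction on 3 plates and at least 30 UMIs (Gm and Rik symbols left out), 5 each way for the Eomes or T comparison, all tested genes of the 5 lists on receptors, GDNF response, stem state, undifferentiated and progenitor cells, at most 4 called genes of other lists, and the 10 most variable genes. Of these, 1 gene among the largest higher differences is not reported here. Symbols were updated by synonym where needed. Alternatives were DESeq2 1.42.0, other size factors, no filter, no block, a caliper of 0.1, thinned pairs, other Gfra1 minimums, restrictions on cells, and leaving out each plate. Python 3.11.15 and R 4.3.3 were used. A test of the genotype difference was added after seeing the data.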

Additional observations from a re-analysis of the deposited data

Results flagged for a closer look

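Each named gene was tested for whether its difference between Gfra1-high cells without Eomes or T and depth-matched Gfra1-negative cells changed with genotype (edgeR interaction over 5 libraries, added after seeing the data). Of 83 named genes 2 passed, among 15 of 9321 genes tested. For Mycn the Plzf lu/lu difference exceeded the Plzf +/+ difference by 2.88 on the log2 scale (edgeR adjusted p = 0.015). It had 13 against 52 UMIs in Plzf +/+ pairs, 54 against 27 on Plzf lu/lu plate 3, and 4 against 3 on Plzf lu/lu plate 4. For Ctsl the difference was -1.07 (edgeR adjusted p = 0.0356), with 168 against 274 UMIs on plate 3 but 19 against 10 in the 6 pairs of plate 4, so the Plzf lu/lu libraries differed in direction. Ret (1.12, edgeR adjusted p = 0.432), Lhx1 (-0.99, edgeR adjusted p = 0.841) and Id4 (-1.47, edgeR adjusted p = 0.146) did not pass.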

How the results depend on the processing

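Against Gfra1-negative cells, 146 genes were higher and 191 lower of 7391 tested. The counts of higher and lower genes were 10 and 7 of 3092 with DESeq2, and 87 and 62 of 7391 without the library block (the pairing within plates). They were 47 and 32 of 3329 with at least 5 Gfra1 UMIs (47 pairs), and 3 and 3 of 8251 without matching. With comparison cells free of Eomes and T, 214 of 7447 were higher and 309 lower. Among germ cells low in spermatid and Sertoli transcripts 102 of 6599 were higher and 95 lower. Among cells with an undifferentiated gene 93 of 7209 were higher and 99 lower. Without 1 plate the counts were 100 to 133 and 142 to 212 of 7330 to 7616 tested. Against Gfra1-high cells with Eomes or T, 34 were higher and 15 lower of 5306 tested. Of the same 5306 genes the counts were 0 and 0 with DESeq2, 1 and 1 without the library block, and 5 and 9 without cells over 4 times the median depth. They were 0 and 2 of 4758 at a caliper of 0.1 and 0 and 1 of 6864 with at least 2 Gfra1 UMIs. With at least 5 Gfra1 UMIs they were 0 and 0, but only 17 pairs and 930 tested genes were left. With no filter 57 of 19876 were lower, and without 1 plate the counts were 1 to 41 and 3 to 26 of 4457 to 6095. The cause of these shifts was not tested. The difference of 2.93 points in shares of cells was 1.40 to 4.45 without 1 library. Signs turned for uncalled genes when a plate was left out, with log2 ranges of -0.70 to 0.14 for Yes1, -0.29 to 0.23 for Bmi1, -0.054 to 0.80 for Itga6, -0.12 to 0.65 for Zbtb16, -0.10 to 0.058 for Dazl and -0.15 to 0.26 for Dnd1. They also turned for Fabp9 (0.44) and Pgk2 (0.16) in the restrictions on cells, and for Ret against cells with Eomes or T at 5 Gfra1 UMIs (0.19). Lhx1 and Egr2 were called higher than in Gfra1-negative cells in all 16 alternatives, Id4 in 15, and Ret and Etv5 in 14. For Id4 these include the restriction to cells with an undifferentiated gene, which Id4 helped to define. A median of 7135 UMIs per cell limits what a count of 0 can show of Eomes and T.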
